A study of Mus musculus with 6 samples.

Results

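The heterotrimeric G protein module was read here as 64 protein-coding genes of the 31053 listed in every library. They were chosen by gene symbol and comprised 16 G alpha subunits, 5 G beta subunits, 12 G gamma subunits, 10 adenylyl cyclases and 21 regulators of G protein signalling (RGS). The cells were primary cortical neurons from C57BL/6J mice at embryonic day 18, treated with floxuridine at day in vitro (DIV) 3, infected at DIV 6 with adeno-associated virus and collected at DIV 14. In 3 libraries the neurons carried RPL10A-STAMP and in 3 they carried RPL22-STAMP, each a fusion of a large-subunit ribosomal protein to rAPOBEC1, a rat cytidine deaminase that converts cytosine to uracil in RNA near the fusion. Both fusions were induced with doxycycline at 1 µg/ml for 48 h from a Tet-On system whose transactivator was driven by the human synapsin promoter, so both groups shared the virus system, the inducer, the mouse strain and the culture protocol, and the promoter was chosen to direct induction to neurons. The fusions themselves also differ in geometry, with Rpl10a after rAPOBEC1 and Rpl22 before it. The value per gene and library was the number of edits per read (EPR). A library with the deaminase alone, or without induction, was not analysed here, so no value below has a background subtracted.

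G protein-coupled receptors act by exchanging GDP for GTP on a G alpha subunit, which then separates from the G beta and gamma dimer. Alpha subunits of the Gs and Golf kind stimulate adenylyl cyclase, those of the Gi kind inhibit it, and those of the Gq kind activate phospholipase C beta, while the free beta and gamma dimer acts on channels and enzymes of its own. RGS proteins speed the hydrolysis of GTP and so end the signal. In neurons these proteins carry the responses to dopamine, adenosine, opioids, acetylcholine and many other modulators.

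The cultures carried the edits of neurons in every library, since all 5 neuron markers (Snap25, Tubb3, Map2, Syn1 and Rbfox3) had an EPR above 0 in all 6. Of 5 astrocyte markers 4 were also edited in all 6 libraries, with a median of their mean scaled EPR of 0.0448 against 0.0203 for the 5 neuron markers. In RPL10A-STAMP their mean EPR ran from 0.0218 for Gfap to 0.0635 for Gja1, and that of the neuron markers from 0.00551 to 0.0272. None of these 4 passed the test between constructs, and the part that other cells had in any result was not tested. The defining markers of oligodendrocytes Mog and Sox10, 4 of 5 microglial markers and all 3 of endothelial cells and pericytes were at 0. Between 9892 and 11195 genes had an EPR above 0 per library. The deposited values are ratios with no read counts beside them, so the depth behind each value is unknown and an EPR of 0 can mean no edits or no reads. The study's methods describe the 3 libraries of a construct as biological replicates and do not say which came from which culture. Its results text calls the replicates behind the EPR correlations of the variants technical. The p-values therefore measure the spread between these libraries.

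A large share of the module was edited. In all 6 libraries 37 of 64 members (57.8%) had an EPR above 0, against 25.9% of all 31053 listed genes and 36.1% of the listed protein-coding genes. The 37 were 11 G alpha, 3 G beta, 6 G gamma, 5 adenylyl cyclase and 12 RGS genes. Another 15 members were at 0 in every library, and these included the transducins Gnat1 and Gnat2 and gustducin, Gnat3, which serve light and taste receptors. The G gamma subunits of photoreceptors (Gngt1 and Gngt2) and the haematopoietic alpha subunit Gna15 were at 0 as well, as were Gna14, Gnb3, Gng11, Adcy4, the soluble cyclase Adcy10, Rgs1, Rgs18, Rgs21 and Rgs22. The remaining 12 members were edited in some libraries and at 0 in others. None of the 64 was edited in all 3 libraries of one construct and in none of the other.

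**Figure D1:**
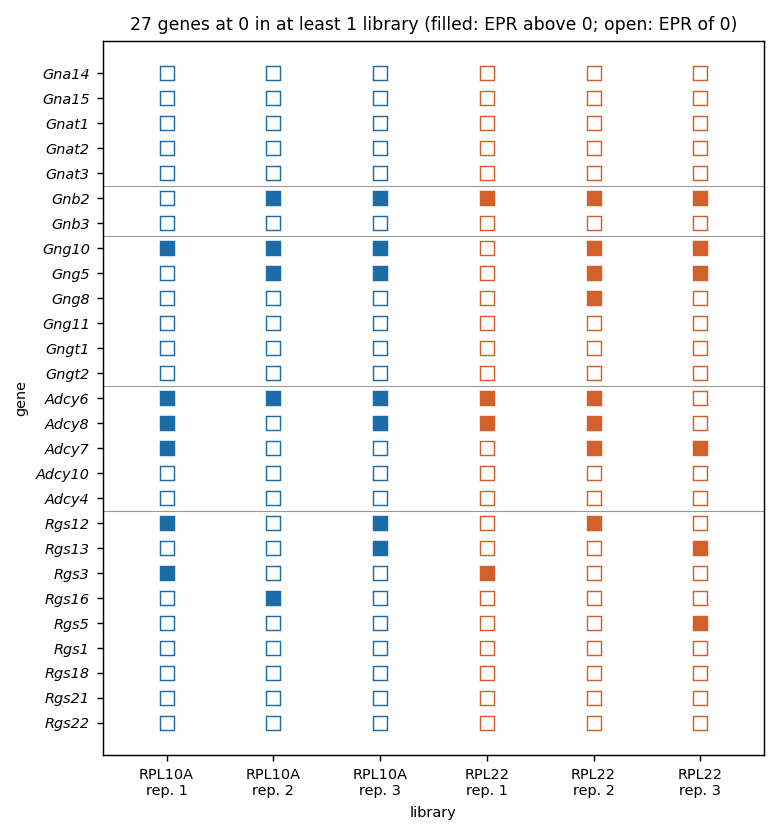
The 27 members that were at 0 in at least 1 library, in rows by family, against the 6 libraries in columns. A filled square stands for an EPR above 0 and an open square for an EPR of 0, and 15 rows are open throughout.

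Among those 12, Gng10 stood apart by its size. Gnb2, the only G beta subunit among them, had an EPR of 0, 0.00612 and 0.00837 in the RPL10A-STAMP libraries and 0.00767, 0.00623 and 0.00328 in the RPL22-STAMP libraries, so it was edited in 5 of 6 and its groups overlapped. Adcy6, a cyclase inhibited by calcium, was also edited in 5 of 6, with EPR from 0 to 0.0247. Gng5 ranged from 0 to 0.140, and 8.89% of its transcript has an exact copy of at least 50 bases elsewhere in the genome, so its reads may be split among copies. The other 8 (Gng8, Adcy7, Adcy8, Rgs3, Rgs5, Rgs12, Rgs13 and Rgs16) had EPR from 0 to 0.0714. Gng10 was the only member with an EPR above 1, that is, with more edits than reads. It stood at 14, 6.29 and 15 with RPL10A-STAMP, against 0, 3.75 and 4.88 with RPL22-STAMP. All 3 RPL10A-STAMP libraries lay above the 3 others, but 72.0% of the exon bases of Gng10 lie within exons of Gm20503 on the same strand, a gene model that was itself listed at 0. A read that falls in both genes cannot be counted for 1 of them without a rule, so the value of Gng10 is uncertain and no fold is given.

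Of the 37 members edited in every library, 4 differed between the constructs and all 4 had the higher EPR with RPL22-STAMP: the gamma subunit Gng3, the RGS gene Rgs9, the alpha subunit Gnaz and the cyclase Adcy1. EPR was scaled to the median of each library over the 8046 genes edited in all 6, and log2(scaled EPR + 0.01) was tested with limma, with Benjamini-Hochberg adjustment over those genes, and a gene was called at an adjusted p under 0.05. The called share of the members was 10.8%, below the 14.3% of all tested genes. Over all tested genes 5.77% were called higher with RPL22-STAMP and 8.51% in the other direction, where the members had 0 calls by limma. At an unadjusted p under 0.05, 9 of the 37 members were higher with RPL22-STAMP (all tested genes 13.8%) and 2, Adcy3 and Rgs17, were lower (17.1%). Markers of neuron classes also differed between the constructs. Of the GABAergic markers, Gad2 was called higher with RPL22-STAMP (log2 fold change -0.54, adjusted p = 0.0446), Gad1 was at -0.72 (adjusted p = 0.0639), and Slc32a1, at 0 in 1 library, had a mean EPR of 0.00535 with RPL10A-STAMP and 0.0217 with RPL22-STAMP. Of the glutamatergic markers, Slc17a6 was called in the other direction (1.48, adjusted p = 0.0185), whereas Slc17a7 (0.04, adjusted p = 0.864) and Neurod6 (-0.22, adjusted p = 0.373) did not pass the test. Of the 5 neuron markers, Syn1 was called higher with RPL22-STAMP (-0.82, adjusted p = 0.00814). The part of neuron classes in the calls of the members was not tested. The log2 fold change, given throughout as RPL10A-STAMP over RPL22-STAMP on the scale of scaled EPR + 0.01, was positive for 12 members and negative for 25, with a median of -0.16 against -0.01 over all tested genes. Without scaling the medians were 0.02 and 0.18. The scaled values of the constructs did not overlap for 15 members (40.5%; all tested genes 37.1%), of which 10 were higher with RPL22-STAMP. In the deposited EPR 12 members did not overlap (all tested genes 34.4%), and here 9 were higher with RPL10A-STAMP, so the direction of the smaller differences depended on the scaling.

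**Figure D2:**
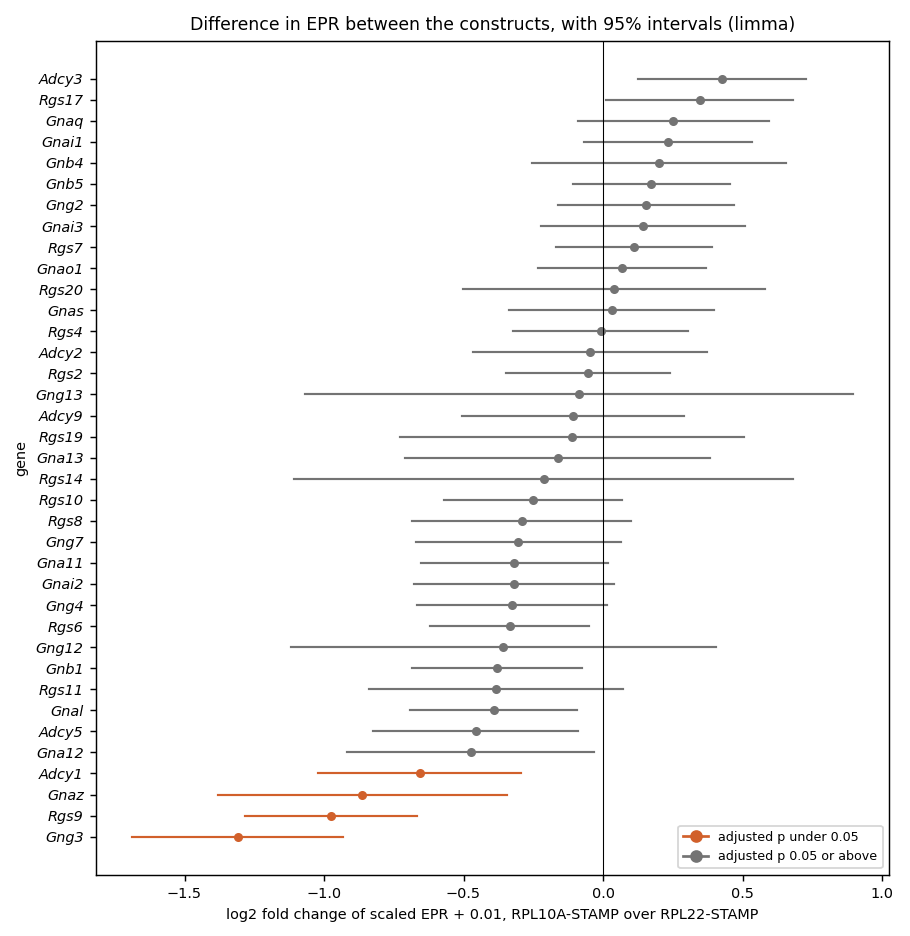
Log2 fold change of scaled EPR + 0.01 (horizontal axis, RPL10A-STAMP over RPL22-STAMP) for the 37 members edited in all 6 libraries, with 95% intervals from limma. The 4 called genes, in orange, run from -1.31 for Gng3 to -0.66 for Adcy1, and Adcy3 has the highest value, 0.43.

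Of the 11 tested G alpha subunits, Gnaz rose with RPL22-STAMP and the other 10 did not pass the test. Gnaz encodes G alpha z, a member of the Gi group that is insensitive to pertussis toxin and is found mainly in neurons. Its EPR was 0.0146, 0.00934 and 0.0230 with RPL10A-STAMP, against 0.0239, 0.0256 and 0.0357 with RPL22-STAMP, groups that did not overlap although the highest of the former nearly met the lowest of the latter. The mean EPR was 0.0157 ± 0.00691 against 0.0284 ± 0.00635 (SD, n = 3 each), a ratio of 1.82, with a log2 fold change of -0.86 (SE 0.22, limma adjusted p = 0.0422). The call was lost in each of the 6 fits that left out a library, whose adjusted p ran from 0.0540 to 0.127. Gnao1, the most abundant alpha subunit of brain, is the member of the same group shown beside it. The first 90 coding bases of each (mm10, strand +; Gnaz chr10:74991418-74991507, Gnao1 chr8:93811336-93811425) are shown to set the called gene beside a relative. Capitals mark each C with A or T on both sides, since rAPOBEC1 is known to favour cytosines in surroundings rich in A and U; EPR does not say which C was edited, and these bases are a small stretch of each transcript.
Gnaz: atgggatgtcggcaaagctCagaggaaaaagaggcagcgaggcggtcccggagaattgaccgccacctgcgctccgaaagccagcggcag
Gnao1: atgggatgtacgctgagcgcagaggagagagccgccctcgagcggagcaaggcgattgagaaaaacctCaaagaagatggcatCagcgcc
Gnao1 had an EPR of 0.0210, 0.0251 and 0.0258 with RPL10A-STAMP, against 0.0157, 0.0179 and 0.0174 with RPL22-STAMP. In these deposited values the RPL10A-STAMP libraries lay above the others, but after scaling they overlapped, with a log2 fold change of 0.07 (95% interval -0.23 to 0.37).

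The inhibitory subunits Gnai1, Gnai2 and Gnai3 differed in level. Gnai1 had an EPR of 0.0216, 0.0277 and 0.0316 with RPL10A-STAMP, against 0.0146, 0.0166 and 0.0170 with RPL22-STAMP, and stayed without overlap after scaling, at a log2 fold change of 0.23 (95% interval -0.07 to 0.53). Gnai2 lay lower in every library, at 0.00481, 0.00393 and 0.00952 and then 0.00480, 0.010 and 0.00936, with a log2 fold change of -0.32 (95% interval -0.68 to 0.04). Gnai3 had the lowest mean scaled EPR of the tested alpha subunits, 0.00689, from EPR of 0.00703, 0.0121 and 0.00752 with RPL10A-STAMP, against 0.00295, 0.00893 and 0.00488 with RPL22-STAMP. Its groups overlapped and its log2 fold change was 0.14 (95% interval -0.22 to 0.51).

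The stimulatory subunits stood at different levels too. Gnal encodes Golf, which couples dopamine and adenosine receptors to cyclase in striatum, and it had the highest EPR of all tested members in each RPL10A-STAMP library. Its EPR was 0.0420, 0.0550 and 0.0564 with RPL10A-STAMP, against 0.0459, 0.0649 and 0.0517 with RPL22-STAMP, a mean scaled EPR of 0.0529 that exceeded that of 96.1% of all tested genes. Scaled, its RPL22-STAMP libraries lay above the others, but the log2 fold change of -0.39 did not pass the test (95% interval -0.69 to -0.09, adjusted p = 0.0835). Gnas, which encodes Gs alpha, was edited less, at 0.0130, 0.0131 and 0.0129 with RPL10A-STAMP, against 0.00981, 0.00803 and 0.0107 with RPL22-STAMP. The spread of Gnas among the RPL10A-STAMP libraries was narrow (SD 0.00013), and its log2 fold change after scaling was 0.03 (95% interval -0.34 to 0.40). Exons of Nespas and Gm20721 lie on the opposite strand over 22% of its exon bases. The libraries were made with a stranded mRNA kit, but whether the counting used strand is not given in the sources used here.

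Gnaq, the alpha subunit that activates phospholipase C beta, had an EPR of 0.0208, 0.0354 and 0.0271 with RPL10A-STAMP, against 0.0140, 0.0172 and 0.0172 with RPL22-STAMP. The groups did not overlap before or after scaling, and the log2 fold change was 0.25 (95% interval -0.09 to 0.59, adjusted p = 0.283). Its relative Gna11 had a log2 fold change of the other sign, -0.32 (95% interval -0.65 to 0.02). The G12/13 subunits were at -0.47 for Gna12 and -0.16 for Gna13, and neither passed the test.

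None of the 3 tested G beta subunits passed the limma test, and 1, Gnb1, had an unadjusted p under 0.05. Gnb1 had an EPR of 0.0184, 0.0203 and 0.0199 with RPL10A-STAMP, against 0.0181, 0.0242 and 0.0243 with RPL22-STAMP. Scaled, its RPL22-STAMP libraries lay above the others, at a log2 fold change of -0.38 (95% interval -0.68 to -0.07, adjusted p = 0.0970). Gnb4 had the highest mean scaled EPR of the 3, 0.0224, from EPR of 0.0227, 0.0340 and 0.0278 with RPL10A-STAMP, against 0.0205, 0.0189 and 0.0130 with RPL22-STAMP. These groups did not overlap as deposited but did after scaling, at a log2 fold change of 0.20 (95% interval -0.26 to 0.66). Gnb5 is the divergent beta subunit that forms stable pairs with RGS proteins of the R7 kind in place of a gamma subunit. It had the lowest mean scaled EPR of the 3, 0.00840, with EPR of 0.0106, 0.0113 and 0.0105 against 0.00519, 0.00756 and 0.00656. Its RPL10A-STAMP libraries lay above the others also after scaling, but the log2 fold change of 0.17 did not pass the test (95% interval -0.11 to 0.46).

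Gng3 encodes a gamma subunit of brain G proteins. Among the 6 tested G gamma subunits only Gng3 passed the test, and it had the largest log2 fold change of all 37 members in size on the scale of scaled EPR + 0.01, whereas the ratio of mean EPR was larger for Rgs9. Its EPR was 0.0105, 0.0122 and 0.0112 with RPL10A-STAMP, against 0.0241, 0.0377 and 0.0442 with RPL22-STAMP. Every RPL22-STAMP library was above every RPL10A-STAMP library, both as deposited and scaled. The mean EPR was 0.0113 ± 0.000844 against 0.0353 ± 0.0103 (SD, n = 3 each), a ratio of 3.13 as deposited and 4.01 after scaling. The log2 fold change was -1.31 (SE 0.16, limma adjusted p = 0.00483), and the call was kept in all 18 alternative fits. Exons of Bscl2 cover 24.2% of its exon bases on the opposite strand. Bscl2 had a mean EPR of 0.00462 with RPL10A-STAMP and 0.00399 with RPL22-STAMP, with a log2 fold change of -0.05 (adjusted p = 0.828).

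Gng2, another gamma subunit of brain G proteins, had an EPR of 0.0262, 0.0271 and 0.0324 with RPL10A-STAMP, against 0.0148, 0.0205 and 0.0214 with RPL22-STAMP. As deposited it was higher in every RPL10A-STAMP library, and scaled the groups overlapped at a log2 fold change of 0.15 (95% interval -0.16 to 0.47). The GC content of the transcript was 53.8% for Gng3 and 43.8% for Gng2. Gng12 had the highest mean scaled EPR of the gamma subunits, 0.0322, but varied among the libraries of a construct, with EPR of 0.0125, 0.0462 and 0.0398 and then 0.0360, 0.0240 and 0.0340. Gng13 had the lowest, 0.0121, with EPR of 0.0159, 0.00687 and 0.0117 and then 0.00811, 0.00185 and 0.0252. For neither did the spread allow a statement on the construct: the 95% intervals of the log2 fold change ran from -1.12 to 0.41 for Gng12 and from -1.07 to 0.90 for Gng13. Of the exon bases of Gng13, 51.6% lie opposite exons of Chtf18, which was at 0 in every library.

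Of 5 tested adenylyl cyclases, which make cAMP from ATP, Adcy1 rose with RPL22-STAMP. Adcy1 is the neuronal cyclase stimulated by calcium and calmodulin, and it had the highest mean scaled EPR of all members, 0.0585, above 96.9% of all tested genes. Its EPR was 0.0405, 0.0534 and 0.0547 with RPL10A-STAMP, against 0.0471, 0.0704 and 0.0797 with RPL22-STAMP. The deposited values overlapped, since the lowest RPL22-STAMP library lay among the others, and the scaled values did not. The mean EPR was 0.0496 ± 0.00783 against 0.0657 ± 0.0168 (SD, n = 3 each), a ratio of 1.33, with a log2 fold change of -0.66 (SE 0.15, limma adjusted p = 0.0336). The call was lost in each of the 6 fits that left out a library, with adjusted p from 0.0514 to 0.116, and without scaling.

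Adcy3, another cyclase that responds to calcium, is best known from neuronal cilia and was the member with the highest log2 fold change. It lies outside the rule for named genes and was chosen after its values were seen. Its EPR was 0.00867, 0.0138 and 0.0137 with RPL10A-STAMP, against 0.00305, 0.00714 and 0.00394 with RPL22-STAMP, without overlap as deposited and scaled. The log2 fold change of 0.43 did not pass the test (95% interval 0.12 to 0.73, adjusted p = 0.0693). The first 90 coding bases of both cyclases (mm10, strand +, Adcy1 chr11:7063600-7063689, Adcy3 chr12:4134326-4134415) show how far the starts of these coding sequences differ in composition.
Adcy1: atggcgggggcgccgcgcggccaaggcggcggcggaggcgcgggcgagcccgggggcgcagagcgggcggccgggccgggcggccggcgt
Adcy3: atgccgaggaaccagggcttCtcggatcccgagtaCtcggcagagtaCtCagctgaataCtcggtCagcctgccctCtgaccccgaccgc
In this stretch the GC content was 90% for Adcy1, with no C between A or T, and 62.2% for Adcy3, with 7. Over the whole transcript Adcy1 was the less GC-rich of the pair, with 52.6% against 56.3%. Adcy5, the main cyclase of striatum, had an EPR of 0.00877, 0.0165 and 0.0111 with RPL10A-STAMP, against 0.0153, 0.0155 and 0.0160 with RPL22-STAMP. Scaled, its RPL22-STAMP libraries lay above the others, at a log2 fold change of -0.46 (95% interval -0.83 to -0.09, adjusted p = 0.0980). Adcy2, which is stimulated by the beta and gamma dimer, had the lowest mean scaled EPR of the cyclases, 0.00471, from EPR of 0.00582, 0.00311 and 0.00592 and then 0.00121, 0.00644 and 0.00636. Its log2 fold change was -0.05 (95% interval -0.46 to 0.37).

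Of the 12 tested RGS genes, Rgs9 rose with RPL22-STAMP. Rgs9 belongs to the R7 kind, whose neuronal form is known for ending dopamine and opioid receptor signals in striatum. Its EPR was 0.00316, 0.00339 and 0.00660 with RPL10A-STAMP, against 0.0135, 0.0157 and 0.0152 with RPL22-STAMP. The lowest RPL22-STAMP value lay well above the highest RPL10A-STAMP value. The mean EPR was 0.00438 ± 0.00192 against 0.0148 ± 0.00114 (SD, n = 3 each), a ratio of 3.38 as deposited and 4.54 after scaling, with a log2 fold change of -0.97 (SE 0.13, limma adjusted p = 0.00564). Since EPR in the RPL10A-STAMP libraries was below the pseudocount of 0.01, the log2 fold change understates this ratio. All 4 R7 genes were edited in every library, and the relative shown beside Rgs9 is Rgs7, the R7 gene most widely expressed in brain. The first 90 coding bases (mm10, strand −, each over 2 exons; Rgs9 between chr11:109281513-109297994, Rgs7 between chr1:175270902-175491130) follow.
Rgs9: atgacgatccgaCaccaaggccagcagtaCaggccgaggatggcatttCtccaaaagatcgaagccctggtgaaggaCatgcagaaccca
Rgs7: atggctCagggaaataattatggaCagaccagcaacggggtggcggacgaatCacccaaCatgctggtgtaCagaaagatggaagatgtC
Here 4 of 25 C in Rgs9 and 6 of 17 C in Rgs7 stood between A or T, and over the transcript the GC content was 54.8% and 44.5%.

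Rgs7 had an EPR of 0.00672, 0.00600 and 0.00705 with RPL10A-STAMP, against 0.00440, 0.00392 and 0.00366 with RPL22-STAMP. The deposited values were higher in every RPL10A-STAMP library, and scaled the groups overlapped at a log2 fold change of 0.11 (95% interval -0.17 to 0.39). The other R7 genes Rgs6 and Rgs11 had log2 fold changes of -0.34 (95% interval -0.62 to -0.05) and -0.38 (95% interval -0.84 to 0.07), and neither passed the test.

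Rgs4, a small RGS protein of the R4 kind that acts on Gi and Gq subunits, had an EPR of 0.00917, 0.0137 and 0.0176 with RPL10A-STAMP, against 0.00925, 0.0112 and 0.00999 with RPL22-STAMP, groups that overlapped. Its log2 fold change of -0.01 (95% interval -0.32 to 0.30) was the smallest in size of all members. Rgs19, of the RZ kind that acts on G alpha z and Gi subunits, had the highest mean scaled EPR of the RGS genes, 0.0226, from 0.0329, 0.0221 and 0.0167 and then 0.0143, 0.0309 and 0.0183. Rgs2, an immediate early gene that acts on Gq, had the lowest of all 37 members, 0.00277, above only 0.261% of all tested genes, from 0.00355, 0.00398 and 0.000899 and then 0.00260, 0.00214 and 0.00290. Neither passed the test, with 95% intervals of the log2 fold change from -0.73 to 0.51 for Rgs19 and from -0.35 to 0.24 for Rgs2. The tested members not described so far (Gng4, Gng7, Adcy9, Rgs8, Rgs10, Rgs14, Rgs17 and Rgs20) had log2 fold changes from -0.33 for Gng4 to 0.35 for Rgs17, and none passed the test.

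**Figure D3:**
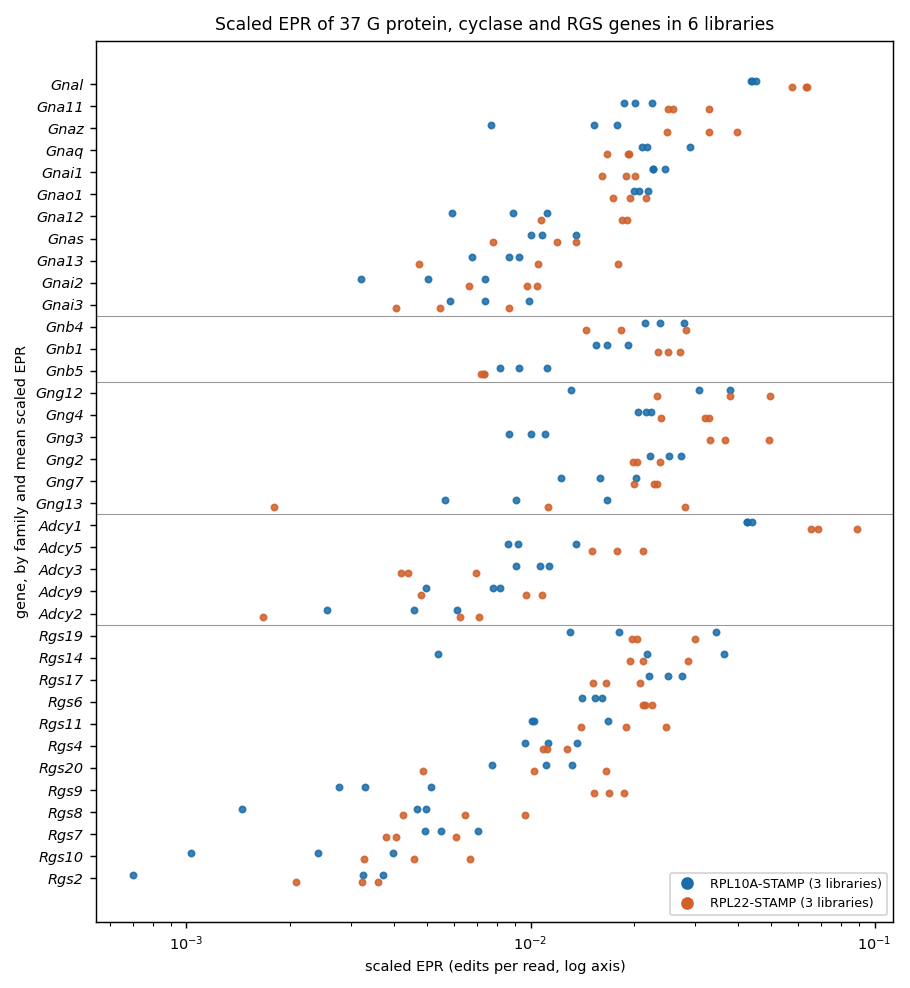
Scaled EPR (horizontal log axis, edits per read) of the 37 tested members in the 3 RPL10A-STAMP libraries (blue) and the 3 RPL22-STAMP libraries (orange), by family and mean. Adcy1 and Gnal stand highest and Rgs2 lowest, and the points of Gng3 and Rgs9 separate by construct.

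The contrast can also be read within a library, where a ratio of 2 genes needs no scaling between libraries. The 4 pairs of a called gene and a relative were chosen after the values were seen, so the ratios are a description. Gng3 over Gng2 was 0.402, 0.451 and 0.345 with RPL10A-STAMP, against 1.63, 1.84 and 2.07 with RPL22-STAMP, so the order of the 2 gamma subunits turned with the construct in every library. Rgs9 over Rgs7 was 0.470, 0.565 and 0.936 against 3.08, 4.02 and 4.14. Gnaz over Gnao1 was 0.696, 0.372 and 0.893 against 1.53, 1.44 and 2.04. These 2 pairs turned in the same way, but for them and for Gng3 the turn depended on the relative chosen. Gng3 lay below Gng12 also in RPL22-STAMP replicate 1 (EPR 0.0241 against 0.0360). It lay above Gng13 also in RPL10A-STAMP replicate 2 (0.0122 against 0.00687). Against Gng4 and Gng7 the order turned as against Gng2. The EPR of Rgs9 lay below that of Rgs6 in every library. That of Gnaz lay above that of Gnai2 in every library, whereas against Gnai1 it turned. Adcy1 over Adcy3 was above 1 in all libraries, at 4.68, 3.88 and 3.98 against 15.4, 9.86 and 20.3.

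**Figure D4:**
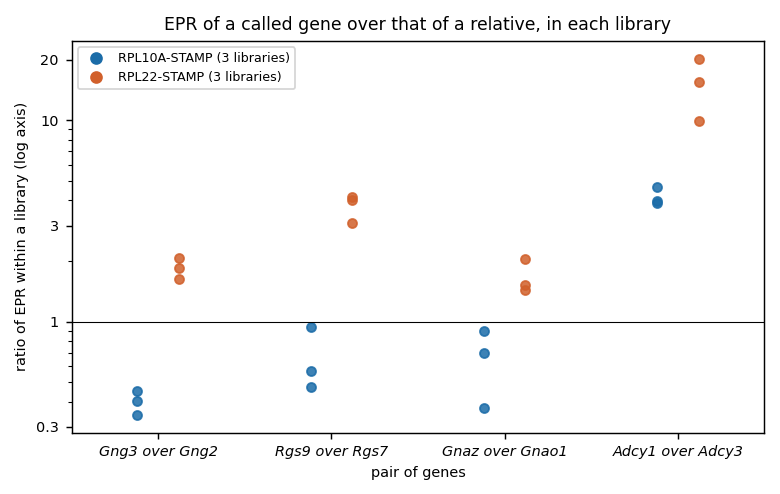
Ratio of the deposited EPR of a called gene to that of a relative within each library (vertical log axis), for 4 pairs, with RPL10A-STAMP libraries in blue and RPL22-STAMP libraries in orange. In 3 pairs all RPL10A-STAMP points lie below 1 and all RPL22-STAMP points above it.

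The order of the members by EPR was partly shared by the libraries. Spearman correlations over the 37 members, whose points share their libraries, ran from 0.735 to 0.915 within a construct and from 0.568 to 0.768 between constructs, and over all tested genes from 0.669 to 0.809 and from 0.516 to 0.575. In each library the median EPR of the members divided by that of all tested genes was 1.05, 0.896 and 0.851 with RPL10A-STAMP, against 1.51, 1.29 and 1.51 with RPL22-STAMP. All 3 RPL22-STAMP libraries thus had the higher ratio. Gnal was the highest tested member in the 3 RPL10A-STAMP libraries and Adcy1 in the 3 RPL22-STAMP libraries.

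The log2 fold change moved with the GC content of the transcript, in the members as in all genes. Their Spearman correlation was -0.46 over the 37 members and -0.47 over 8039 tested genes with a known transcript, a correlation across genes, which share libraries and are not independent. The 7 members with a GC content of up to 44.5% had a median log2 fold change of 0.14 and 0 calls, and the 15 with at least 53.8% had a median of -0.32 and 3 calls, all higher with RPL22-STAMP. Of the 2010 tested genes lowest in GC content 458 were called, 432 of them higher with RPL10A-STAMP, at a median of 0.27. Of the 2010 highest in GC content 275 were called, 19 of them higher with RPL10A-STAMP, at a median of -0.25. The 15 members in between had a median of -0.25 and 1 call, higher with RPL22-STAMP. The 4019 tested genes in between had a median of -0.01 and 416 calls, 234 of them higher with RPL10A-STAMP. In a fit with the GC trend removed, which called 8.25% of all genes, Gng3 (log2 fold change -1.10, limma adjusted p = 0.0108) and Rgs9 (-0.73, adjusted p = 0.0240) were still called. Gnaz and Adcy1 were not, with adjusted p of 0.126 and 0.0977, and Adcy3 was called higher with RPL10A-STAMP at 0.72 (adjusted p = 0.0233). The part of GC content in these calls was not tested further.

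**Figure D5:**
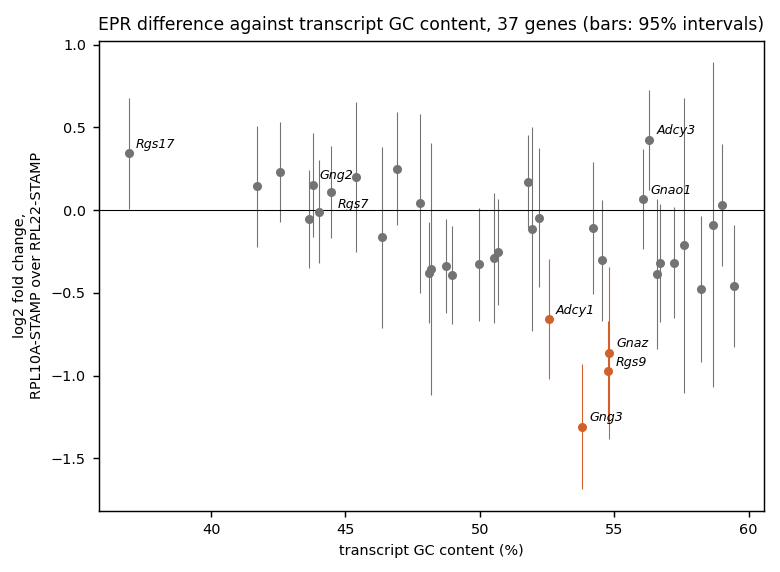
Log2 fold change of scaled EPR + 0.01 (vertical axis, RPL10A-STAMP over RPL22-STAMP, bars for 95% intervals) against transcript GC content (horizontal axis, %) for the 37 tested members. Orange points are the 4 called genes, which lie between 52.6% and 54.8% GC and have the 4 lowest values.

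The genes around the module were taken as 121 receptors, kinases, chaperones, effectors and phosphodiesterases. Of these 65 were edited in every library and 13 were called (20%; all tested genes 14.3%), 7 higher with RPL22-STAMP and 6 higher with RPL10A-STAMP. Among the largest changes with RPL22-STAMP were those of Adora1 and Grk3. Adora1, the adenosine A1 receptor that couples to Gi, had an EPR of 0.0155, 0.0214 and 0.0211 with RPL10A-STAMP, against 0.0351, 0.0439 and 0.0607 with RPL22-STAMP, a log2 fold change of -1.22 (SE 0.17, adjusted p = 0.00674). Grk3, a kinase that binds the beta and gamma dimer and desensitises receptors, stood at 0.0218, 0.0235 and 0.0235 against 0.0375, 0.0520 and 0.0392 (log2 fold change -0.96, SE 0.14, adjusted p = 0.00661). In both the RPL22-STAMP libraries lay above the others.

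Of the partners called higher with RPL10A-STAMP, Pde3b, Plcb1 and Prkca had the largest changes. Pde3b, which breaks down cAMP, had an EPR of 0.102, 0.212 and 0.239 with RPL10A-STAMP, against 0.0193, 0.0181 and 0.00702 with RPL22-STAMP, a log2 fold change of 2.62 (SE 0.31, adjusted p = 0.00472). Plcb1, the phospholipase C beta that Gq activates in cortex, stood at 0.0185, 0.0279 and 0.0257 against 0.00735, 0.00862 and 0.00832 (log2 fold change 0.67, SE 0.13, adjusted p = 0.0169). Prkca, protein kinase C alpha, stood at 0.0375, 0.0534 and 0.0501 against 0.0162, 0.0212 and 0.0218 (log2 fold change 0.64, SE 0.13, adjusted p = 0.0209). In all 3 the RPL10A-STAMP libraries lay above the others. By list, 2 of 16 tested receptors were called, 2 of 4 receptor kinases and arrestins, 1 of 8 chaperones and modulators, 3 of 7 genes of phospholipase C, its targets and receptors, 1 of 9 cAMP effectors, 2 of 10 phosphodiesterases, 1 of 8 A-kinase anchors and 1 of 3 G12/13 effectors. The modulator was Rgs7bp, the membrane anchor of R7 RGS proteins, named after its values were seen: its EPR of 0.0360, 0.0415 and 0.0488 with RPL10A-STAMP exceeded 0.0188, 0.0195 and 0.0204 with RPL22-STAMP (log2 fold change 0.52, adjusted p = 0.0499), the direction opposite to that of Rgs9. Of the 13 calls 4 were kept with the GC trend removed, and 3 to 8 genes were called when a library was left out.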

How the data were processed

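Each library was poly(A) RNA of mouse cortical neurons, prepared with the Illumina TruSeq Stranded mRNA kit. The authors used STAR for alignment to mm10, SAILOR for C-to-U edits and featureCounts for reads, after trimming. The deposited value per gene is a ratio, edits over reads (EPR); the annotation and the strand setting are not given in the sources used here, and the depth behind a ratio is unknown. The members and gene lists were chosen with earlier results of these data known. Of 31053 listed genes 31011 were found by ID in GENCODE M21, from which symbols, exons and sequences (GRCm38, the mm10 build) were taken. EPR of the 8046 genes above 0 in all 6 libraries was scaled so that every library had the same median, the geometric mean of the 6 medians, and tested as log2(EPR + 0.01) with limma 3.58.1 (R 4.3.3; eBayes with a variance trend; Benjamini-Hochberg; threshold 0.05). The script was tested on simulated data. An exact permutation test of 3 against 3 libraries cannot go below p = 0.10 and was not used. Exact copies of at least 50 bases were found with BLAST 2.17.0. Named with values were all called members, the highest and lowest tested member of each family, members with EPR above 1 and 15 well-known neuronal genes; of the signalling partners, the 3 largest calls in each direction, of which 1 is not reported here. Gna11, Gna12, Gna13, Gng5, Adcy3, Adcy6, Rgs6, Rgs11 and Rgs7bp were added after their values were seen. In total 18 alternative fits were run per result.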

Additional observations from a re-analysis of the deposited data

How the results depend on the processing

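Of the 4 called members, Gng3 was called in all 18 alternative fits (log2 fold change -1.89 to -0.58, limma adjusted p 0.00388 to 0.0491), Rgs9 in 17, and Gnaz and Adcy1 in 6 each. The count of called members fell to 2 without scaling, with genes edited in at least 3 libraries, with no filter on EPR, and in each fit without 1 library (2 to 2); it was 1 with the GC trend removed and a replicate block. The count of called signalling partners, 13 in the fit as reported, was 8 with genes edited in at least 3 libraries, 6 with no filter, 4 with the GC trend removed, 2 with the GC trend removed and a replicate block, and 3 to 8 without 1 library. Same-numbered libraries did not deviate together over the tested genes (correlations of their deviations from the construct mean 0.0437, 0.0464 and -0.00546). This does not settle whether they shared a culture. With the replicate block 3 members, without Adcy1 (limma adjusted p = 0.0734), and 5 partners were called. With the GC trend removed and the block, Rgs9 (adjusted p = 0.0687) and Adcy3 (0.0633) were not called. Of all calls 59.6% were higher with RPL10A-STAMP, 88.1% without scaling, which moves the median of all genes to 0.18, 51.8% with 75th percentile scaling and 54.1% with the GC trend removed. The named uncalled members that changed sign follow, as log2 fold changes, with those not named added for scaling and GC. Without scaling Adcy2 was at 0.044, Gng13 at 0.1094, Rgs19 at 0.1288, Rgs2 at 0.022, Rgs4 at 0.2072, Rgs14 at 0.07, Adcy9 at 0.03 and Gna13 at 0.00027. With the GC trend removed, with or without the replicate block, Adcy2 was at 0.1072, Gnai1 at -0.047, Gnai3 at -0.1676, Gng13 at 0.261, Gng2 at -0.072, Rgs19 at 0.03, Rgs7 at -0.086, Rgs17 at -0.14, Rgs14 at 0.11, Adcy9 at 0.12 and Rgs20 at -0.0044. With the length trend removed Gnao1 was at -0.012, Gng13 at 0.1096, Rgs19 at 0.025 and Rgs4 at 0.016. Gnas was at -0.011 with 75th percentile scaling, and Gng13 at 0.083 with a pseudocount of 0.001. Without 1 library the ranges were -0.2269 to 0.061 for Adcy2, -0.088 to 0.1176 for Gnas, -0.509 to 0.3439 for Gng13, -0.3733 to 0.099 for Rgs19, -0.1194 to 0.058 for Rgs2 and -0.075 to 0.063 for Rgs4. The causes were not tested. The unknown depth behind each EPR limits what can be said of low values and of genes at 0.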
